A study of Mus musculus with 32 samples.

Results

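The 31 genes described here make, take up, store and export cholesterol. They were chosen by symbol, as the rows of the deposited count table that carry the names of known cholesterol genes; the rule uses no measured value, but the list was drawn up with earlier results of these data known. All 31 were found among the 23337 genes of the table, and all 31 passed the filter on low counts in each of the 3 model fits. By role, 18 encode enzymes of synthesis, 3 act in sterol sensing and transport (Srebf2, Insig1 and Stard4), 6 are liver X receptors (LXR) or genes of export (Nr1h2, Nr1h3, Abca1, Abcg1, Mylip and Pltp), and 4 act in esterification or lysosomal release (Soat1, Npc1, Npc2 and Lipa).

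RNA was sequenced from cells sorted out of mouse gliomas that had been treated with BLZ945, an inhibitor of the macrophage growth factor receptor CSF-1R, or with vehicle. Every tumour was raised in an XFM mouse by injecting DF-1:PDGFB cells into the brain at 5 to 6 weeks of age; DF-1 is a chicken fibroblast line, here carrying PDGFB, a platelet-derived growth factor chain, so all groups share this driver. Mice entered the trial at a tumour volume of 20 to 40 mm3 and were dosed daily until they had symptoms or were 26 weeks old, and the age of each mouse at collection was not used here. Tumours were perfused, digested with papain and sorted into CD11b+ Gr1- cells, labelled tumour-associated macrophages (TAM), and PDGFRA+ cells, labelled tumour cells (TC). Vehicle mice received vehicle, Endpoint mice received BLZ945 and had tumours described as dormant, and Rebound mice received BLZ945 and had tumours whose stage is not defined further. Because the agent field names BLZ945 for all libraries, those of Vehicle mice too, treatment was taken from the stage label. There were 5 Vehicle, 6 Endpoint and 5 Rebound libraries of each sort, 32 in all from 17 mice, 15 of which gave both sorts. Replicates are different mice and are named by mouse number.

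Cholesterol is built from acetyl-CoA through the mevalonate pathway, squalene and lanosterol. When sterols in the endoplasmic reticulum fall, the factor SREBP-2, encoded by Srebf2, is released from its partner INSIG and switches on the enzymes of synthesis. When sterols rise, their oxidised forms activate the LXR receptors, which switch on exporters such as ABCA1 and ABCG1. In the brain cholesterol is made locally, and macrophages and microglia take in large amounts of it with the debris they engulf, myelin included, free it in the lysosome, and then store it as esters or hand it to lipoprotein particles.

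Regulatory sequence could be read for 25 of the 31 genes, from the RefSeq promoter table of GRCm38.p6. In the 250 bases before the start of each gene, CCAAT on either strand, the box read by NF-Y, a factor that acts beside SREBP-2, was present in 14 of 15 synthesis genes (93.3%), 2 of 2 sensing genes, 2 of 5 LXR and export genes (40%) and 3 of 3 esterification and lysosomal genes. Over all 27025 genes of the table it was present in 37.5%. The sterol regulatory element TCACNCCAC, on either strand, was found in 1 of the 25, Hmgcs1, against 1.22% of all genes. The LXR element, written as AGGTCA, a spacer of 4 bases and then AGGTCA or AGTTCA, was in 0 of the 25 and in 0.0148% of all genes; these letters are simply not in this window. Below are the 150 bases before the start of Hmgcs1, because it holds both motifs, and of Mvd and Mvk, which hold CCAAT boxes and were picked after their values were seen as synthesis genes that fell in Endpoint TC. Capitals mark the sterol regulatory element in Hmgcs1 and each CCAAT or its reverse complement ATTGG. The windows lie at chr13:119690201-119690350 (plus strand), chr8:122443423-122443572 (minus strand) and chr5:114444119-114444268 (plus strand), 5′ to 3′.
Hmgcs1: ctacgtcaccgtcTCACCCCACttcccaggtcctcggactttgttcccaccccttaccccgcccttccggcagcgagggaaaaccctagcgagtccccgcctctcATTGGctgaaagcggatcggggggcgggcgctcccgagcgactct
Mvd: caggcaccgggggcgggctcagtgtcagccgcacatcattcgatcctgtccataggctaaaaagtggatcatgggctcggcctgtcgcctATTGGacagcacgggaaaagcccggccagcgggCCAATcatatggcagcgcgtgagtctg
Mvk: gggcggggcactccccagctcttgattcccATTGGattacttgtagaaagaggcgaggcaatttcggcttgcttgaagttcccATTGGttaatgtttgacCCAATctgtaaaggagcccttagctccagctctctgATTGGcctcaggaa
The sterol regulatory element of Hmgcs1 begins 137 bases before its start, and the printed window holds 1 of its 3 CCAAT boxes. Mvd has both of its 2 boxes in the window, and Mvk has 4 of its 5. A match of letters is a description of the sequence and not evidence that a factor was bound in these cells.

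A Vehicle library summed to 25.6 to 30.4 M counts in TAM and 13.1 to 23.0 M in TC, an Endpoint library to 9.54 to 15.8 M and 4.18 to 14.0 M, and a Rebound library to 15.4 to 19.6 M and 10.5 to 16.5 M. All 22 BLZ945 libraries hold only even counts and the Vehicle libraries do not, a difference in the files that follows treatment. Whether 1 count is a read or a fragment may differ between these sets, so totals of Vehicle and BLZ945 libraries may not be in the same unit. In every comparison of Vehicle with Endpoint or Rebound, treatment and any difference in handling that goes with these files cannot be told apart. TAM libraries carried high myeloid markers at every stage, 29247 to 47492 CPM (counts scaled to library size, here summed over 9 markers) in Vehicle, 19653 to 21673 in Endpoint and 14011 to 22383 in Rebound. Endpoint TC went against their label: 8 tumour markers summed to 196 to 1811 CPM, against 2114 to 7162 in Vehicle and 1814 to 6065 in Rebound, while 7 ependymal and choroid plexus markers summed to 6381 to 216735 CPM against 11.6 to 617 in Vehicle. They also held more myelinating oligodendrocyte markers (22646 to 34203 CPM, against 3007 to 18304 in Vehicle) and myeloid markers (1042 to 6004 CPM, against 144 to 1091), and in 4 of 6 libraries, all but those of mice 49843 and 49845, T and NK cell markers summed to 3841 to 5284 CPM. They are therefore called PDGFRA-sorted cells below, and TC is kept only as the label of the sort. In sorted bulk samples, fewer cells of a type and less RNA per cell cannot be told apart.

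Seen as whole groups, the mean of the LXR and export genes was lower at Endpoint than in Vehicle in TAM and higher in TC, while the mean of the synthesis genes was lower at Endpoint in TC and differed by less than its SD between the TAM stages. For each library the log2(CPM + 1) values of a role were averaged. CPM were scaled by TMM, a correction for library composition, separately within TAM and within TC. In TAM the LXR and export mean was 6.55 ± 0.21 (SD, n = 5) in Vehicle, 5.44 ± 0.26 (n = 6) in Endpoint and 6.81 ± 0.16 (n = 5) in Rebound, so that every Endpoint library, at most 5.70, lay below every other TAM library. The TAM synthesis mean was 4.68 ± 0.30, 4.49 ± 0.28 and 4.53 ± 0.17 in the same order, with the ranges overlapping. In TC the synthesis mean was 6.40 ± 0.35 in Vehicle, 5.58 ± 0.28 in Endpoint and 5.97 ± 0.41 in Rebound, and the LXR and export mean 4.57 ± 0.22, 5.72 ± 0.24 and 5.11 ± 0.48. By group, the synthesis mean thus lay above the LXR and export mean in Vehicle and Rebound TC, and slightly below it in Endpoint TC. This order did not hold in each library. The difference was -0.21 in Rebound TC 49827, and 0.18 and 0.15 in Endpoint TC 49843 and 49845. CPM here are not divided by gene length, so which role lies above depends in part on the lengths of its genes. The 6 LXR and export genes did not move together in TC. Median CPM in Vehicle and Endpoint were 9.27 and 109 for Pltp and 8.28 and 59.2 for Mylip, but 309 and 203 for Abcg1. In the edgeR test of Endpoint against Vehicle TC given below, Pltp and Mylip were the 2 of 6 that passed, and 2 others had negative estimates. Synthesis minus LXR and export was -1.87 ± 0.48, -0.95 ± 0.51 and -2.27 ± 0.30 in TAM, and 1.83 ± 0.35, -0.14 ± 0.30 and 0.86 ± 0.84 in TC. These means describe the libraries and carry no test.

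**Figure D1:**
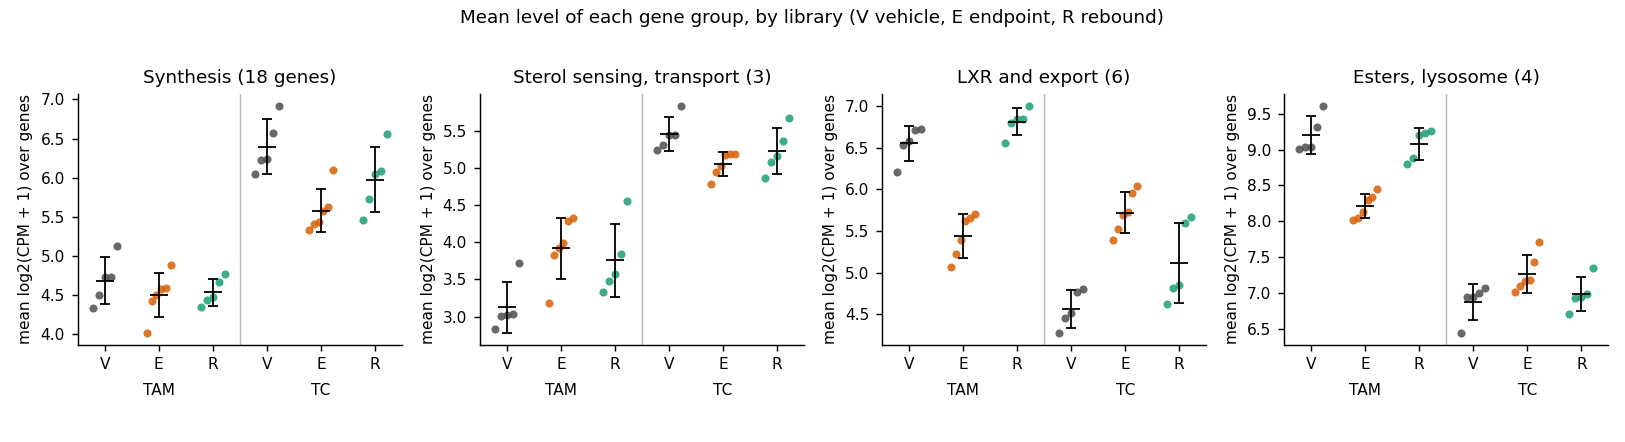
Mean log2(CPM + 1) of the genes of each of the 4 roles, 1 point per library, by stage for TAM and TC (scaled separately), with the group mean and SD. The TAM Endpoint points lie below the other TAM stages for LXR and export and for esterification and lysosomal release, while for synthesis the TC Endpoint mean is the lowest of the 3 TC means, with points that overlap those of the other stages.

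The first comparison asked what differed in TAM between dormant tumours under BLZ945 and vehicle-treated tumours. All 4 esterification and lysosomal genes fell, as did 3 of the 6 LXR and export genes and 7 of the 18 synthesis genes, and Insig1, which holds SREBP-2 back, rose. Of the 31 genes, 1 rose and 14 fell (adjusted p under 0.05, from edgeR's quasi-likelihood test with Benjamini-Hochberg adjustment over all genes tested, as for every adjusted p below); over all 13315 genes tested 33.0% passed, 13.7% higher and 19.3% lower. The median log2 fold change was -0.39 for the 31 genes and -0.03 for all genes. The medians by role were -1.13 for LXR and export genes, -1.07 for esterification and lysosomal genes, -0.34 for synthesis genes and 0.84 for sensing genes, of which Insig1 was the 1 of 3 that passed.

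Abcg1, which loads cholesterol onto high-density lipoprotein, was at 1203, 1239, 1622, 2492 and 2717 CPM in TAM Vehicle libraries, and at 290 to 790 CPM with a median of 409 in Endpoint libraries. The groups did not overlap, and the log2 fold change was -1.89 ± 0.336 (SE) with an adjusted p of 0.000392. Pltp, the phospholipid transfer protein that remodels lipoproteins, fell from 14.0, 18.0, 21.6, 32.5 and 36.7 CPM to 0.758 to 7.21 CPM with a median of 2.92 (-2.82 ± 0.488, adjusted p 0.000371), again without overlap. Of its exonic bases, 495 overlap those of Ctsa on the opposite strand, and because the library kit does not mark strand, reads there cannot be assigned; Ctsa, a lysosomal protease gene, also fell (-1.16, adjusted p 0.00124). Nr1h3, which encodes LXR alpha, was at 4.36, 4.93, 5.32, 7.87 and 9.46 CPM in Vehicle and at 0.568 to 4.13 CPM (median 1.51) in Endpoint. All Endpoint libraries were below all Vehicle libraries (-1.60 ± 0.487, adjusted p 0.0169). Abca1, the exporter to lipid-poor apolipoproteins, was at 221, 287, 326, 421 and 449 CPM in Vehicle and 123 to 334 CPM (median 180) in Endpoint. These ranges overlapped and the difference did not pass (-0.66, adjusted p 0.111). The other members of the role, Mylip (0.16), which marks lipoprotein receptors for breakdown, and Nr1h2 (-0.39, adjusted p 0.134), which encodes LXR beta, did not pass either.

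Soat1, the enzyme that esterifies cholesterol for storage, had the smallest p of the 31 genes. It was at 267, 293, 319, 377 and 443 CPM in Vehicle and 112 to 175 CPM (median 129) in Endpoint (-1.34 ± 0.165, adjusted p 1.55e-05). Lipa, the lysosomal acid lipase that frees cholesterol from esters, was at 432, 455, 478, 604 and 694 CPM in Vehicle and 162 to 265 CPM (median 192) in Endpoint (-1.40 ± 0.211, adjusted p 8.55e-05). For both genes every Endpoint library was below every Vehicle library. The lysosomal exit proteins Npc1 (-0.80, adjusted p 0.00188) and Npc2 (-0.47, adjusted p 0.0336) fell by less, also without overlap. Npc2 was at 1646, 1649, 1826, 1841 and 2695 CPM in Vehicle and 1105 to 1618 CPM in Endpoint. Its call rested on single libraries: without Vehicle 54359, the highest, the log2 fold change was -0.31, and without any 1 of that library and Endpoint 49823, 49830 and 49845 the adjusted p was 0.0605 to 0.128; with no filter on low counts it was 0.0558. Myeloid markers were lower in these Endpoint libraries (values above), and so were 6 endothelial markers, at 9.12 to 21.6 CPM against 25.6 to 49.4 in Vehicle. Myelinating oligodendrocyte markers (694 to 1884 CPM, against 371 to 744), ependymal and choroid plexus markers (49.3 to 126 CPM, against 1.92 to 5.14) and 6 neuron markers (15.2 to 30.8 CPM, against 2.98 to 8.32) were higher. The part of these marker shifts in the differences between Endpoint and Vehicle TAM was not tested.

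**Figure D2:**
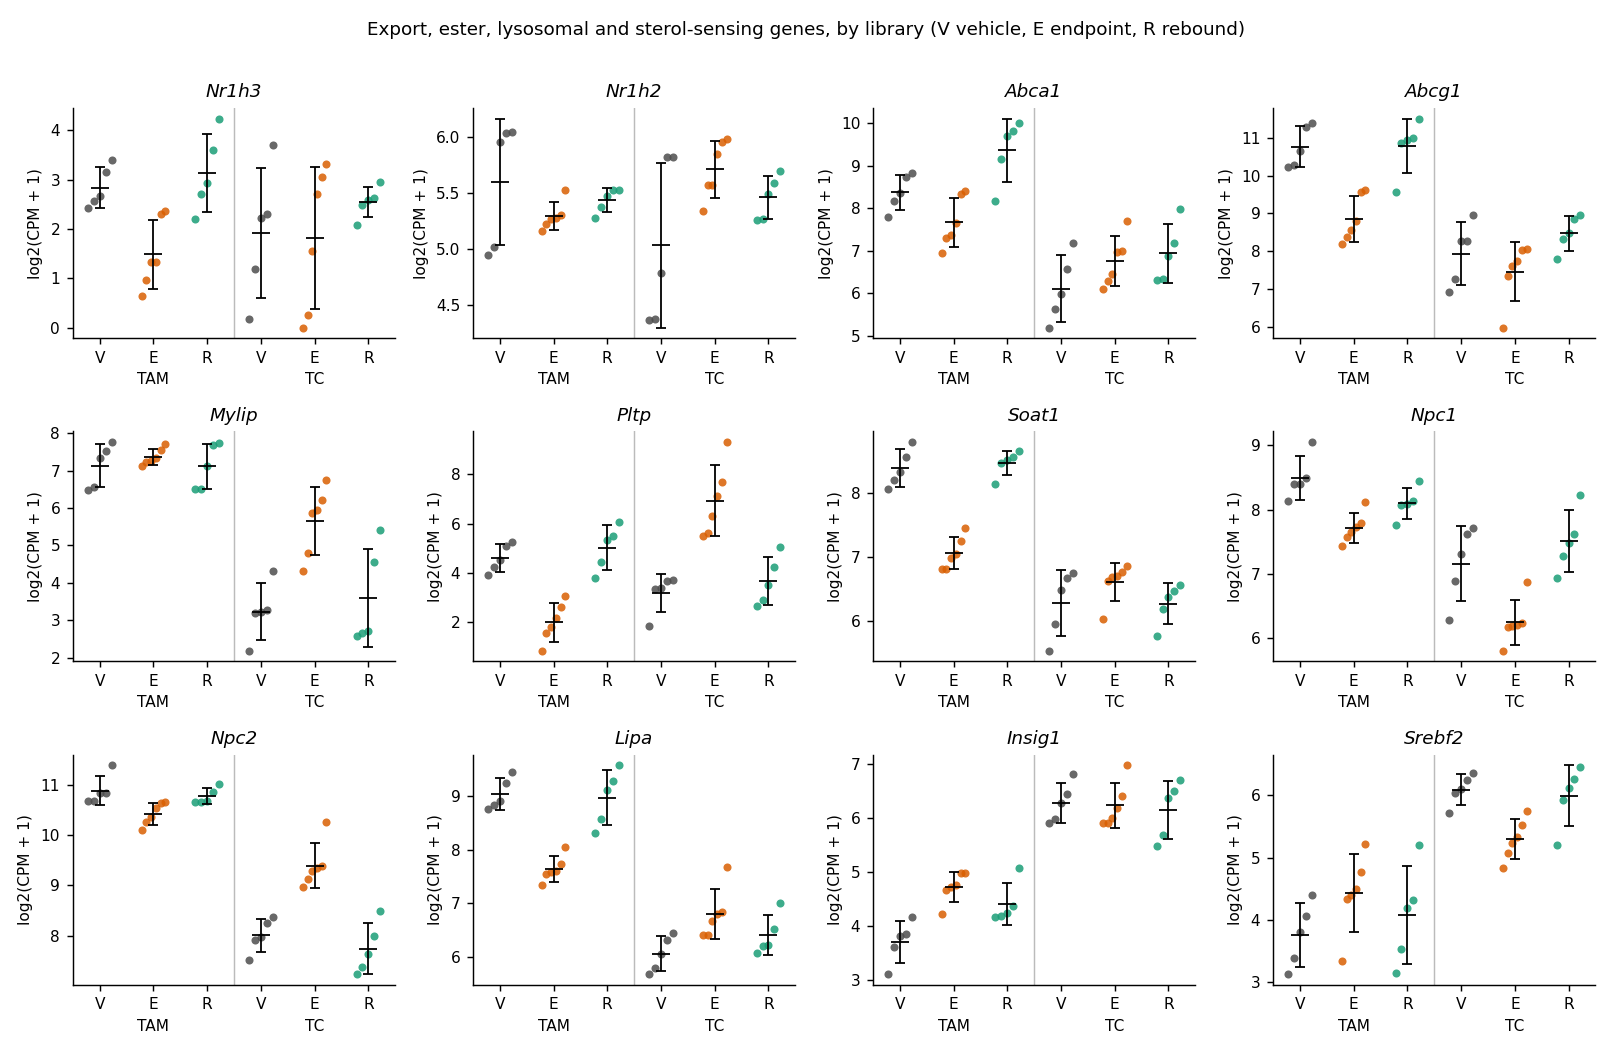
log2(CPM + 1) of 12 sensing, LXR, export, esterification and lysosomal genes, 1 point per library, for Vehicle, Endpoint and Rebound in TAM and TC (scaled separately), with mean and SD. Among TAM groups, Abcg1, Pltp, Soat1 and Lipa are lowest in Endpoint, while among TC groups Pltp and Npc2 are highest in Endpoint.

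Among the synthesis enzymes in TAM, Mvd, which makes isopentenyl diphosphate, fell most. Its values were 12.0, 13.7, 16.9, 17.3 and 33.4 CPM in Vehicle and 4.92 to 9.55 CPM (median 7.84) in Endpoint (-1.31 ± 0.272, adjusted p 0.00128), without overlap. Hsd17b7, a 3-keto-sterol reductase, fell by 1.13 on the log2 scale (adjusted p 0.00668), from 7.02 to 23.1 CPM in Vehicle to 5.30 to 10.3 CPM in Endpoint, with overlap. Acat2, the cytosolic thiolase that opens the pathway, and Pmvk, phosphomevalonate kinase, fell by 0.69 (adjusted p 0.0104) and 0.63 (adjusted p 0.00393); reads of Acat2 may be shared with its near-identical neighbour Acat3. The last 3 calls, in enzymes of the late sterol steps, were Tm7sf2 (-0.96, adjusted p 0.0411), Dhcr7 (-0.50, adjusted p 0.0369) and Ebp (-0.49, adjusted p 0.0221), and each depended on single libraries. Tm7sf2 was lost (adjusted p 0.0512 to 0.11) without any 1 of Endpoint 49823, 49825, 49830, 49831 and 49843 and Vehicle 54359, 57682 and 64247. Dhcr7 was lost (0.0504 to 0.13) without any 1 of Endpoint 49823, 49825, 49830 and 49831 and Vehicle 54359, 54363 and 57098. Ebp was lost (0.0508 to 0.0899) without any 1 of Endpoint 49823 and Vehicle 54359 and 64247. With no filter on low counts Tm7sf2 (0.0684) and Dhcr7 (0.0528) were lost. Tm7sf2 also shares 532 exonic bases with Vps51 on the same strand.

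The other 11 synthesis genes did not pass in TAM, and they did not share a sign. Hmgcs1, the synthase that makes HMG-CoA, was at 33.8, 50.7, 63.4, 94.2 and 118 CPM in Vehicle and 42.6 to 69.1 CPM (median 57.1) in Endpoint (-0.37 ± 0.249, adjusted p 0.268). Sqle, squalene epoxidase, was at 4.51, 10.8, 12.3, 17.5 and 44.6 CPM in Vehicle and 11.9 to 56.8 CPM (median 31.4) in Endpoint, a log2 fold change of 0.94 ± 0.546 (adjusted p 0.201). The high Vehicle value is that of mouse 57098, and without it Sqle passed (1.60, adjusted p 0.0244). Mouse 57098 was also the highest Vehicle TAM library for Cyp51 at 96.2 CPM, Sc4mol at 99.7 CPM, Sc5d at 66.3 CPM, Lss at 26.0 CPM and Hmgcs1, so that several enzymes were high in this 1 library together.

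In the sensing genes, Insig1 rose in TAM from 7.63, 11.2, 13.1, 13.4 and 16.9 CPM in Vehicle to 17.6 to 30.7 CPM (median 25.7) in Endpoint. The groups did not overlap (1.05 ± 0.233, adjusted p 0.00213). Srebf2, at 7.73 to 20.0 CPM (median 13.0) in Vehicle and 9.09 to 36.4 CPM (median 20.8) in Endpoint, did not pass (0.74, adjusted p 0.131). Stard4, a sterol carrier, did not pass either (0.84, adjusted p 0.0933).

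Rebound TAM were next compared with Endpoint TAM, 2 groups that both received BLZ945. Here 8 genes rose and 0 fell, where 17.6% of all genes passed, 11.7% higher and 5.90% lower; the medians were 0.20 for the 31 genes and 0.02 for all genes. LXR and export genes supplied 4 of the 8 (median of the role 1.84), esterification and lysosomal genes 2 (0.88) and synthesis genes 2 (0.14), and 0 of the 3 sensing genes passed (-0.29). Both this and the preceding comparison use the same Endpoint libraries, so a return in one mirrors the fall in the other in part by construction. Endothelial markers summed to 50.4 to 122 CPM in Rebound TAM, against 9.12 to 21.6 in Endpoint. With overlap, 5 neutrophil markers were higher (52.9 to 2209 CPM, against 2.90 to 147). Astrocyte markers (470 to 1504 CPM, against 1469 to 2540) and neuron markers (3.64 to 17.7 CPM, against 15.2 to 30.8) were lower, also with overlap. The part of these marker shifts in the differences was not tested.

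Abca1 was at 285, 572, 831, 891 and 1022 CPM in Rebound TAM, and rose by 1.74 ± 0.313 over Endpoint (adjusted p 0.00112). The lowest Rebound library, mouse 49059, lay inside the Endpoint range and the other 4 lay above it. The corresponding Abcg1 levels were 765, 1867, 1969, 2045 and 2926 CPM (1.94 ± 0.336, adjusted p 0.000862), with 49059 again the lowest and below the highest Endpoint library. Pltp was at 12.7, 20.4, 38.7, 44.3 and 66.0 CPM, all above the Endpoint libraries (3.39 ± 0.497, adjusted p 0.000316); Ctsa rose as well (0.77, adjusted p 0.0312). Nr1h3 ranged from 3.58 to 17.8 CPM with a median of 6.66 (2.08 ± 0.492, adjusted p 0.00675), overlapping Endpoint in 1 library. Soat1 was at 282, 353, 363, 374 and 400 CPM (1.40 ± 0.165, adjusted p 3.8e-05) and Lipa at 315, 380, 549, 620 and 755 CPM (1.38 ± 0.211, adjusted p 0.000325), both clear of Endpoint. These 6 calls held without any single library.

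The 2 synthesis calls were less secure. Hsd17b7 rose by 0.99 (adjusted p 0.0267) and Mvd by 0.86 (adjusted p 0.0354), with Mvd at 9.63, 11.7, 12.3, 16.2 and 18.1 CPM in Rebound. Mvd was lost (0.0552 to 0.101) without any 1 of Rebound 49041, 49059 and 49849 and Endpoint 49823, 49825, 49830 and 49843. Hsd17b7 was lost (0.0503 to 0.0731) without any 1 of Rebound 49059, 49834 and 49849 and Endpoint 49823, 49825 and 49830. Rebound libraries 49041 and 49059 held T and NK cell markers above 100 CPM, and without both of them Mvd was at 0.58 (adjusted p 0.253); with no filter on low counts its adjusted p was 0.0538. Sqle was at 6.91 to 34.5 CPM in Rebound (-1.09, adjusted p 0.188), Hmgcs1 at 67.9 to 102 CPM (0.55, adjusted p 0.137), Srebf2 at 7.84 to 35.7 CPM (-0.29, adjusted p 0.638), Insig1 at 16.9 to 32.9 CPM (-0.30, adjusted p 0.397) and Npc2 at 1610 to 2091 CPM (0.34, adjusted p 0.16); none of these passed.

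Between Rebound and Vehicle TAM, 2 genes rose and 3 fell, while 14.7% of all genes passed (7.00% higher, 7.73% lower; median -0.02 for the 31 genes, 0.02 for all genes). Abca1 was higher in Rebound than in Vehicle (1.08 ± 0.327, adjusted p 0.0338), as was Insig1 (0.75 ± 0.24, adjusted p 0.0431), whose groups touched but did not overlap. Ebp (-0.65, adjusted p 0.0142), Fdft1, squalene synthase (-0.75, adjusted p 0.0421), and Pmvk (-0.52, adjusted p 0.036) were lower, all 3 without overlap. Fdft1 shares 774 exonic bases with Ctsb on the opposite strand. Myelinating oligodendrocyte markers were at 813 to 3196 CPM in Rebound TAM, against 371 to 744 in Vehicle. Ependymal and choroid plexus markers were at 2.33 to 414 CPM, against 1.92 to 5.14, while myeloid markers were lower (values above). The part of these markers in the differences between Rebound and Vehicle TAM was not tested. Abcg1 (0.05, adjusted p 0.947), Lipa (-0.02, 0.957), Npc2 (-0.13, 0.659), Nr1h3 (0.48, 0.552), Srebf2 (0.46, 0.453), Hmgcs1 (0.18, 0.687) and Sqle (-0.15, 0.886) did not pass, which does not show that they were equal.

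Of these 5 calls, the call of Ebp survived the removal of each single library, and without both 49041 and 49059 its adjusted p was 0.0711. Abca1 was lost (0.0656 to 0.0829) without any 1 of Rebound 49827, 49834 and 49849 and Vehicle 54363, 57098 and 64247. Insig1 was lost (0.052 to 0.138) without any 1 of Rebound 49041, 49059, 49834 and 49849 and Vehicle 54359, 54363, 57682 and 64247, and without 49041 and 49059 together it was at 0.47 (adjusted p 0.253). Fdft1 was lost (0.0539 to 0.1) without any 1 of Rebound 49041, 49834 and 49849 and Vehicle 54359, 54363, 57098 and 57682. Pmvk was lost (0.0537 to 0.0846) without any 1 of Rebound 49041, 49827 and 49849 and Vehicle 57098 and 64247. Without 49041 and 49059 together Fdft1 (0.078) and Pmvk (0.0991) were also lost, as were Abca1 (0.0543), Insig1 (0.0832), Fdft1 (0.0607) and Pmvk (0.0633) with no filter on low counts and Fdft1 (0.0501) under RLE scaling, another correction for library composition.

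**Figure D3:**
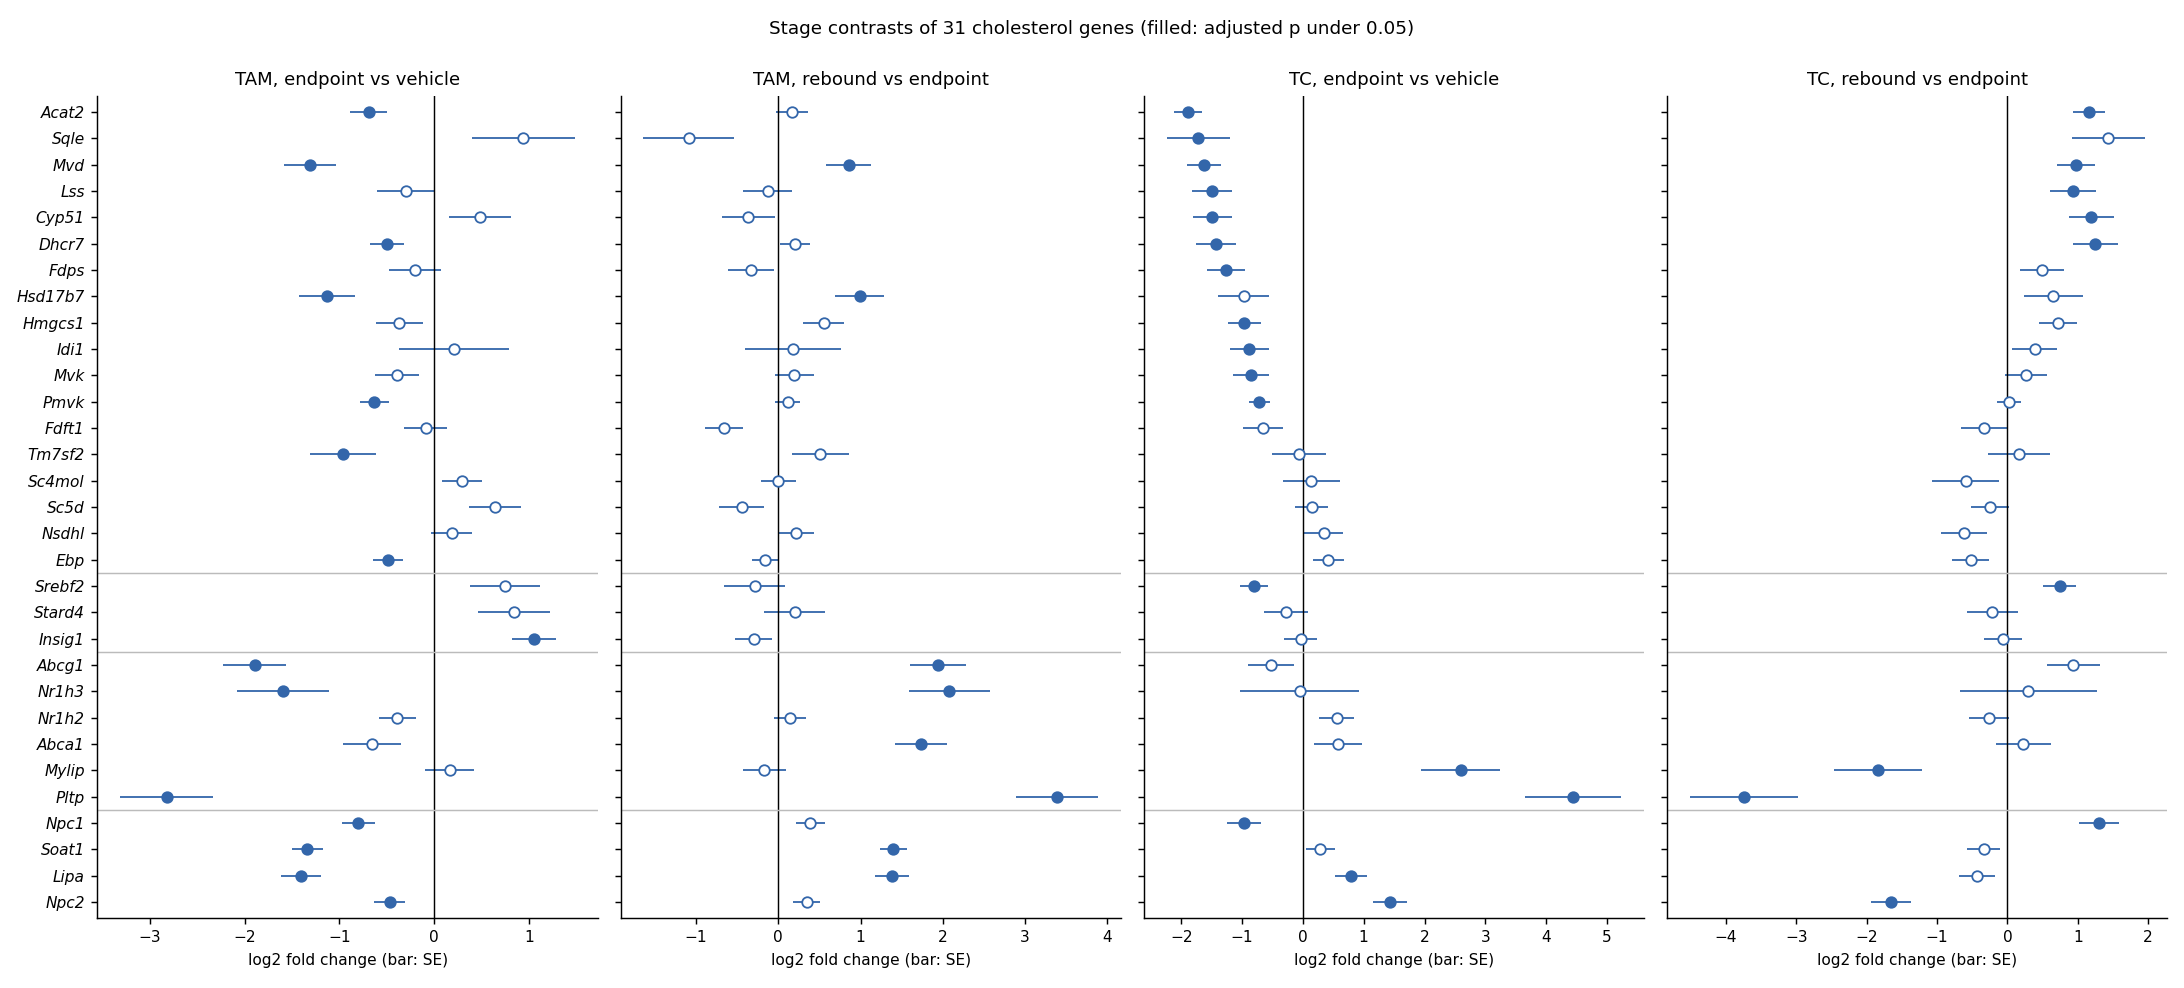
log2 fold change ± SE of the 31 genes, grouped by role, in Endpoint against Vehicle and Rebound against Endpoint for TAM and for TC; filled points have an adjusted p under 0.05 in edgeR. In TAM the called points of the LXR, export and lysosomal genes lie below 0 at Endpoint and above 0 at Rebound, and in TC the called points of the synthesis genes do so.

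In the PDGFRA-sorted cells most of the genes that fell at Endpoint were synthesis enzymes, 11 of 13, the others being Srebf2 and Npc1. Between Endpoint and Vehicle TC, 4 of the 31 genes rose and 13 fell, where 28.7% of all 14985 genes tested passed, 14.0% higher and 14.8% lower. The medians were -0.52 for the 31 genes and 0.03 for all genes. Of 18 synthesis genes 11 fell, 0 rose and 7 did not pass (median -0.92), Srebf2 fell alone among the 3 sensing genes (-0.28), 2 of 6 LXR and export genes rose (0.57), and in the last role 2 rose and 1 fell (0.54). All of these values stand beside the marker shifts given above for the Endpoint TC libraries; the part of those shifts in them was not tested.

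Acat2 was at 192, 202, 247, 250 and 295 CPM in TC Vehicle and at 48.6 to 102 CPM (median 54.5) in Endpoint, without overlap. It fell by 1.88 on the log2 scale (SE 0.23, adjusted p 0.000251), the largest fall of the 31 genes in this comparison. Mvd fell from 30.3, 40.7, 43.5, 52.8 and 58.7 CPM to 8.90 to 21.8 CPM (median 13.3), also without overlap (-1.63 ± 0.278, adjusted p 0.00114). Cyp51, lanosterol demethylase, was at 179, 182, 193, 331 and 357 CPM in Vehicle and 66.2 to 131 CPM (median 86.9) in Endpoint (-1.49 ± 0.319, adjusted p 0.00375), clear of each other. Dhcr7, which closes the pathway, was at 89.5, 133, 140, 236 and 314 CPM in Vehicle and 49.7 to 88.0 CPM (median 70.4) in Endpoint (-1.43 ± 0.325, adjusted p 0.00536), the ranges all but touching. Fdps, farnesyl diphosphate synthase (-1.26, adjusted p 0.00929), and Pmvk (-0.71, adjusted p 0.00709) fell without overlap, and Lss, lanosterol synthase, fell with overlap (-1.50, adjusted p 0.00474). Fdps shares 1124 exonic bases with Gm43738 on the same strand, and Cyp51 shares 166 with Akap9 on the opposite strand.

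In Vehicle TC, with a range overlapping that of Acat2, Hmgcs1 had the highest median of the 31 genes per kilobase. Its levels were 347, 459, 507, 810 and 1134 CPM in Vehicle and 263 to 413 CPM (median 320) in Endpoint (-0.96 ± 0.274, adjusted p 0.0164). The lowest Vehicle library, mouse 64247, lay inside the Endpoint range, and without the highest, mouse 57098, the fold change was -0.67 with an adjusted p of 0.0594. Sqle was at 96.9, 182, 253, 329 and 411 CPM in Vehicle and 27.6 to 176 CPM (median 60.0) in Endpoint (-1.72 ± 0.52, adjusted p 0.0224), with Endpoint 49845 the highest and inside the Vehicle range. It was lost (0.051 to 0.0581) without Vehicle 57098 or Vehicle 57682. Mvk (-0.85, adjusted p 0.0425) was lost (0.0538 to 0.0878) without any 1 of Endpoint 49823, 49825, 49830 and 49831 or any 1 of the 5 Vehicle libraries. Idi1, isopentenyl diphosphate isomerase (-0.88, adjusted p 0.0494), was lost (0.0527 to 0.15) without any 1 of Endpoint 49823, 49825, 49830, 49831 and 49843 and Vehicle 54359, 54363, 57098 and 57682. Mvk and Idi1 were also lost under RLE scaling (0.0578 and 0.0662), and Idi1 with no filter on low counts (0.0577). Without Vehicle 54359 and 54363 and Rebound 49827, which held oligodendrocyte markers above 10000 CPM, they were lost as well (0.078 and 0.0677). The 7 synthesis genes that did not pass were Ebp, Fdft1, Hsd17b7, Nsdhl, Sc4mol, Sc5d and Tm7sf2.

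Srebf2, the transcription factor gene of the pathway, was at 51.5, 65.0, 67.4, 75.1 and 80.6 CPM in TC Vehicle and 27.6 to 53.0 CPM (median 37.9) in Endpoint. It fell by 0.80 (SE 0.233, adjusted p 0.0189), with the groups overlapping only between the highest Endpoint and the lowest Vehicle library. Insig1, at 58.9 to 111 CPM in Vehicle and 58.9 to 124 CPM in Endpoint, did not pass (-0.04 ± 0.27, adjusted p 0.933).

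**Figure D4:**
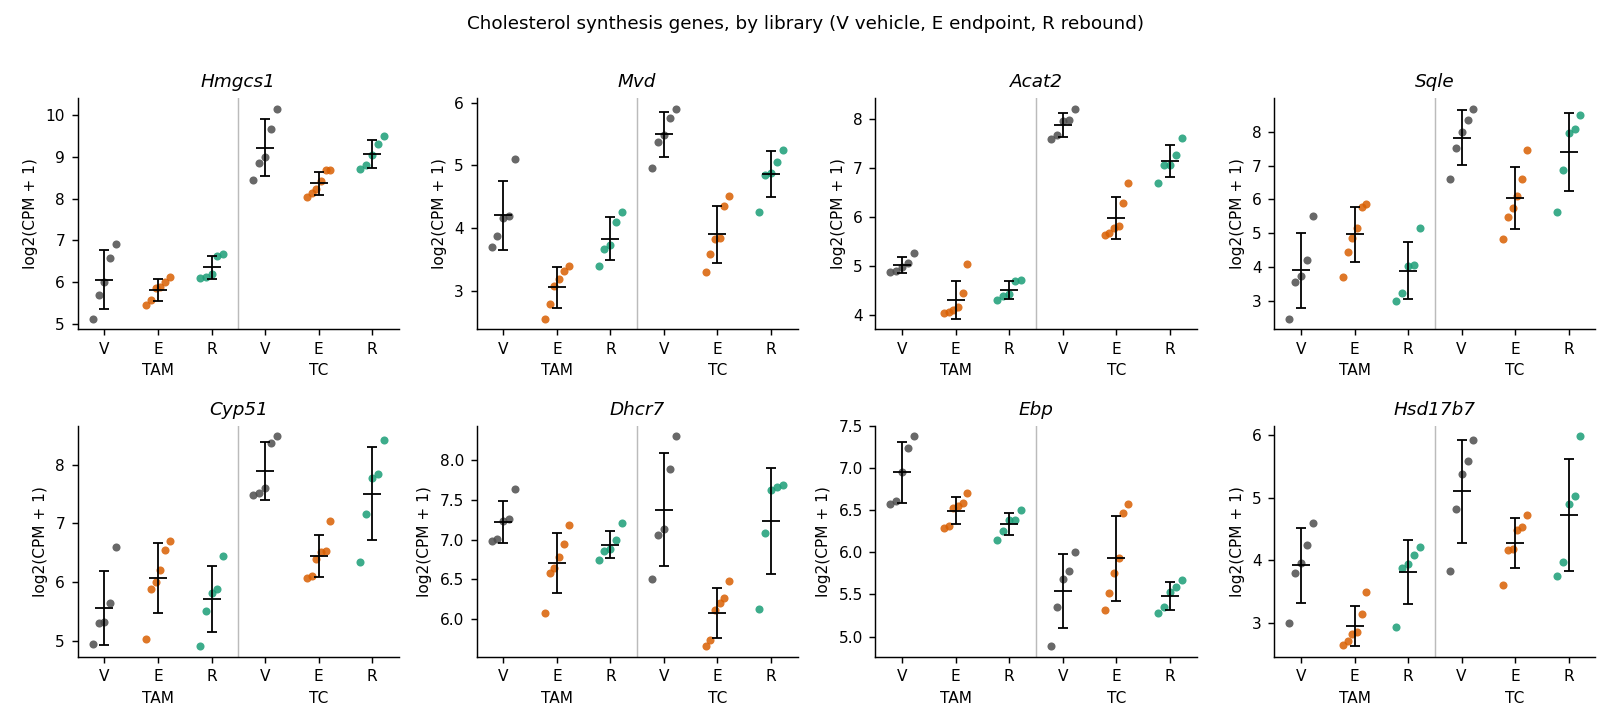
log2(CPM + 1) of 8 synthesis genes, 1 point per library, for Vehicle, Endpoint and Rebound in TAM and TC (scaled separately), with mean and SD. The TC Endpoint points of Acat2, Mvd, Cyp51 and Dhcr7 lie below the TC Vehicle points without overlap, while in TAM the Sqle and Cyp51 ranges overlap across stages.

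Among the export genes, Pltp moved most in TC, and upward. It was at 2.60, 9.0, 9.27, 11.6 and 11.9 CPM in Vehicle and at 43.5 to 640 CPM (median 109) in Endpoint, without overlap (4.44 ± 0.795, adjusted p 0.00159). The highest value belongs to mouse 49845, whose library also had the highest ependymal and choroid plexus marker sum, 216735 CPM. Without this library the log2 fold change was 3.52 (adjusted p 0.00149). That removal does not take these markers away. They summed to 6381 to 75721 CPM in the other Endpoint TC libraries, against at most 617 in Vehicle TC. Their part in the rise of Pltp was not tested. Ctsa, which overlaps Pltp, rose too (1.19, adjusted p 0.00309). Mylip rose from 3.51, 8.05, 8.28, 8.59 and 19.0 CPM to 18.9 to 106 CPM (median 59.2), with the highest Vehicle and the lowest Endpoint library nearly equal (2.60 ± 0.646, adjusted p 0.00873). Abca1, at 35.4 to 144 CPM in Vehicle and 67.5 to 207 CPM in Endpoint (0.58, adjusted p 0.289), Abcg1, at 120 to 493 and 61.9 to 268 CPM (-0.52, adjusted p 0.319), and Nr1h3, at 0.131 to 11.9 and 0 to 8.97 CPM (-0.05 ± 0.981, adjusted p 0.974), did not pass.

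The lysosomal genes moved in both directions in TC. Npc2 rose from 182, 240, 249, 304 and 330 CPM in Vehicle to 500 to 1222 CPM (median 637) in Endpoint, without overlap (1.43 ± 0.279, adjusted p 0.00229). Its partner Npc1, at 77.0, 117, 157, 196 and 209 CPM in Vehicle and 54.8 to 117 CPM (median 72.4) in Endpoint, fell (-0.97 ± 0.279, adjusted p 0.0172). Without Vehicle 57682 the adjusted p of Npc1 was 0.0506; the gene shares 511 exonic bases with Rmc1 on the opposite strand. Lipa rose from 50.5, 55.1, 65.5, 78.6 and 86.6 CPM to 83.9 to 204 CPM (0.79, adjusted p 0.0304), and was lost (0.061 to 0.114) without any 1 of Endpoint 49845 and Vehicle 54359, 54363 and 57682. With no filter on low counts its adjusted p was 0.0713. Without Vehicle 54359 and 54363 and Rebound 49827 Lipa was at 0.49 (adjusted p 0.228). In that fit 11 of the 31 genes fell and 3 rose, and the share of all genes that passed is not given here.

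At Rebound, 5 of the 18 synthesis enzymes in TC stood above Endpoint, and 5 others had a negative estimate, as did 7698 of all 14985 genes. Against Endpoint, 7 genes rose and 3 fell, where 25.1% of all genes passed, 13.6% higher and 11.5% lower; the medians were 0.23 and -0.04. The risers were the 5 synthesis genes (median of the role 0.44), Srebf2 and Npc1, and those that fell were Pltp, Mylip and Npc2. This comparison uses the same Endpoint libraries as Endpoint against Vehicle TC, so opposite signs in them arise in part by construction. Ependymal and choroid plexus markers summed to 1.60 to 1156 CPM in Rebound TC, against 6381 to 216735 in Endpoint. With overlap, 6 pericyte and fibroblast markers summed to 88.9 to 5490 CPM in Rebound, against 235 to 907 in Endpoint and 10.6 to 118 in Vehicle. The part of these marker shifts in the Rebound differences was not tested. Acat2 was at 103, 132, 133, 153 and 195 CPM in Rebound, above every Endpoint library (1.15 ± 0.227, adjusted p 0.00281). Dhcr7 was at 68.9, 135, 196, 201 and 205 CPM (1.25, adjusted p 0.0116) and Cyp51 at 80.2, 142, 217, 228 and 340 CPM (1.19, adjusted p 0.0132), and for both the lowest Rebound library, mouse 49827, lay inside the Endpoint range. Mvd rose by 0.97 (adjusted p 0.0177), but not without Rebound 49059 (0.87, adjusted p 0.0534). Lss (0.93, adjusted p 0.0485) was lost (0.0564 to 0.13) without any 1 of Rebound 49041, 49059, 49692 and 49849 and Endpoint 49823, 49825, 49830, 49831 and 49843, and also in DESeq2 (0.0512) and under RLE scaling (0.0643).

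Mouse 49827 stood apart from the other Rebound TC libraries for several of these genes. It had 3147 CPM of T and NK cell markers, against at most 21.3 CPM in the other 4. Its myeloid markers (2421 CPM, against 27.5 to 54.0) and astrocyte markers (8639 CPM, against 1050 to 1439) were also high, and its tumour markers (1814 CPM, against 3812 to 6065) low. It was the lowest of the 5 for Acat2, Cyp51, Dhcr7, Sqle and Srebf2, and the part of these markers in those values was not tested. Sqle was at 47.9 CPM there and at 116, 250, 271 and 358 CPM in the others (1.43 ± 0.517, adjusted p 0.0523). It passed without Rebound 49827 or without Endpoint 49845 (1.69 to 1.88, adjusted p 0.0104 to 0.0171), in DESeq2 (1.38, 0.0365), with even counts divided by 2 (1.43, 0.0498) and without the 3 TC libraries rich in oligodendrocyte markers, 49827 among them (1.76, 0.0063). Hmgcs1 was at 416, 444, 527, 630 and 725 CPM in Rebound, all above Endpoint, and did not pass (0.72, adjusted p 0.0636), but passed without those 3 libraries (0.80, adjusted p 0.0404).

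Srebf2 rose by 0.74 (adjusted p 0.028), from 27.6 to 53.0 CPM in Endpoint to 35.6 to 87.1 CPM in Rebound. Its call was lost (0.0505 to 0.0893) without any 1 of Rebound 49041, 49059 and 49849 and Endpoint 49831 and 49845. Npc1 rose by 1.30 (adjusted p 0.00449) to 122 to 300 CPM, above every Endpoint library. Npc2 fell to 149, 165, 198, 252 and 356 CPM, below every Endpoint library (-1.65 ± 0.281, adjusted p 0.0014). Pltp fell to 5.23, 6.35, 10.4, 17.8 and 32.2 CPM, likewise below Endpoint (-3.74 ± 0.767, adjusted p 0.00382), and without Endpoint 49845 by 2.83. Mylip was at 4.95, 5.34 and 5.59 CPM in 3 Rebound libraries and at 22.4 and 41.7 CPM in the others, the last being mouse 49827 (-1.84, adjusted p 0.0399). Its call was lost (0.0551 to 0.0959) without any 1 of Rebound 49041, 49059, 49692 and 49849 and Endpoint 49825, 49830 and 49831. Without Rebound 49827 Mylip fell by 2.58. Without Rebound 49059 the count of called genes was 6 in place of 10, with the share of all genes in that fit not given here. Insig1 (-0.07, adjusted p 0.873), Abca1 (0.23, 0.688), Abcg1 (0.94, 0.0772), Nr1h3 (0.30, 0.843) and Lipa (-0.43, 0.225) did not pass.

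Between Rebound and Vehicle TC, 0 of the 31 genes passed in edgeR, where 0.0734% of all genes did (0.0400% higher, 0.0334% lower). With no adjustment 5 of the 31 had an edgeR p under 0.05, as did 2243 of all 14985 genes. In DESeq2, the other tool run, 1 gene of the 31 passed, Pmvk (-0.68, adjusted p 0.00885). The median was -0.22 for the 31 genes and 0.04 for all genes. Negative estimates were found for 17 of 18 synthesis genes (median -0.39), and positive ones for 6 of 6 LXR and export genes (median 0.56). Over all 14985 genes, 7148 estimates were negative and 7837 positive. The genes of a role were read in the same libraries, so their signs are not separate observations. Hmgcs1 (-0.25 ± 0.286), Sqle (-0.29 ± 0.537), Srebf2 (-0.05 ± 0.244), Abca1 (0.81 ± 0.415) and Abcg1 (0.42 ± 0.395) show how wide these estimates are.

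The 2 sorts were then compared at each stage, from 1 fit over all 32 libraries. In Vehicle most export, esterification and lysosomal genes were higher in TAM than in TC, and most synthesis and sensing genes were lower. Of the 31 genes 10 were higher and 15 lower, where 54.8% of 15668 genes passed, 25.6% higher and 29.2% lower, with medians of -0.70 and -0.12. All 4 esterification and lysosomal genes were higher (median 3.09) and 5 of 6 LXR and export genes were (2.42), while 12 of 18 synthesis genes were lower and 1 higher (-1.10), and 3 of 3 sensing genes were lower (-1.75). The levels in this comparison are CPM under that common scaling and so differ from those given above.

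Mylip showed the widest gap in Vehicle, at 115 to 267 CPM (median 198) in TAM and 2.93 to 16 CPM (median 6.90) in TC (4.57 ± 0.576, adjusted p 1.19e-07). Lipa was at 562 to 911 CPM in TAM and 42.4 to 72.2 CPM in TC (3.59, adjusted p 8.77e-12), and Npc2 at 2024 to 3539 and 152 to 269 CPM (3.50, adjusted p 6.89e-12). Abcg1 was at 1488 to 3464 CPM in TAM and 99.7 to 411 CPM in TC (3.36, adjusted p 1.24e-07), and Abca1 (2.76) and Soat1 (2.68) followed. In the other direction Sqle was at 5.92 to 58.0 CPM in TAM and 81.3 to 348 CPM in TC (-3.21 ± 0.63, adjusted p 8.82e-05); without TAM 57098 the difference was -3.91. Hmgcs1 was at 41.6 to 154 CPM in TAM and 289 to 960 CPM in TC (-2.56 ± 0.306, adjusted p 4.09e-08), and Acat2 at 34.9 to 48.8 and 157 to 249 CPM (-2.30, adjusted p 1.11e-09). None of these groups overlapped. Ebp was the 1 synthesis enzyme higher in TAM, at 120 to 205 CPM against 24.0 to 52.9 CPM (2.02, adjusted p 1.05e-08). Insig1 (-2.05), Srebf2 (-1.75) and Stard4 (-1.75) were lower in TAM, all without overlap. Nr1h3 did not pass (1.22, adjusted p 0.221), and without TC 54363 it did (2.10, adjusted p 0.0478).

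The remaining calls of the Vehicle comparison were Fdft1 (-2.24), Idi1 (-2.18), Pltp (2.08), Npc1 (1.90), Fdps (-1.80), Cyp51 (-1.69), Lss (-1.52), Mvk (-1.33), Nr1h2 (1.12), Pmvk (-0.87), Nsdhl (-0.82) and Mvd (-0.67, adjusted p 0.0473). Nsdhl was lost (0.0594 to 0.0965) without TC 57098 or TAM 64247. Mvd was lost (0.0562 to 0.125) without any 1 of TAM 54359, 54363, 57098 and 57682 and TC 54359, 54363, 57098 and 64247, with no filter on low counts (0.0594), and without TC 54359 and 54363 together (-0.61, adjusted p 0.139).

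At Endpoint the median gap between the sorts was smaller than in Vehicle for the lysosomal and for the export genes, though not for each gene: that of Npc1 was much the same, and that of Pltp was wider and in the other direction. There 9 genes were higher in TAM and 12 lower, where 51.1% of all genes passed, 18.7% higher and 32.4% lower (medians -0.46 and -0.19). The medians by role were 1.38 for esterification and lysosomal genes (4 of 4 higher), 0.74 for LXR and export genes (3 higher, 1 lower), -0.87 for synthesis genes (2 higher, 10 lower) and -0.74 for sensing genes (1 lower). Pltp was 0.890 to 8.69 CPM in TAM and 35.3 to 543 CPM in TC (-5.31 ± 0.701, adjusted p 5.21e-07), a reversal of its order in Vehicle; without TC 49845 it was -4.39. Hmgcs1 (-2.08, adjusted p 4.58e-07), Mylip (2.03, 0.000698), Npc1 (1.96, 9.41e-08), Abcg1 (1.87, 0.000118), Fdft1 (-1.79, 7.84e-06), Npc2 (1.48, 3.49e-06) and Abca1 (1.41, 0.00173) were the next in size. Lipa (1.28), Acat2 (-1.22), Idi1 (-1.21), Dhcr7 (1.14), Nsdhl (-1.10; -0.71 without TC 49845), Insig1 (-1.08), Tm7sf2 (-1.07), Ebp (1.00), Mvk (-0.97), Hsd17b7 (-0.97), Soat1 (0.95), Pmvk (-0.89) and Fdps (-0.84) also passed. Sqle (-0.68, adjusted p 0.297), Srebf2 (-0.32, 0.411) and Nr1h3 (-0.43, 0.658) did not. The marker shifts given above for the Endpoint TC libraries apply here too, and their part in these gaps was not tested.

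Of the Endpoint calls, 5 were lost without single libraries. Fdps was lost (0.0506 to 0.131) without TAM 49830, TC 49843 or TC 49845, and Mvk (0.0580) without TC 49843. Hsd17b7 was lost (0.0521 to 0.0573) without TAM 49823, TAM 49825 or TC 49825, and Tm7sf2 (0.0515 to 0.0854) without TAM 49830, TAM 49843 or TC 49845. Idi1 was lost (0.058 to 0.0678) without TAM 49830, TAM 49831, TC 49843 or TC 49845. With no filter on low counts Fdps (0.0612), Hsd17b7 (0.0732), Tm7sf2 (0.067) and Idi1 (0.0733) were lost.

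At Rebound 9 genes were higher in TAM and 12 lower, where 47.8% of all genes passed, 20.4% higher and 27.4% lower (medians -0.43 and -0.16). The medians by role were 2.93 (4 of 4 higher), 2.40 (4 of 6 higher), -0.89 (1 higher and 10 lower of 18) and -1.26 (2 of 3 lower), in the order used for Endpoint. Mylip (3.76, adjusted p 2.3e-06; 4.47 without TC 49827), Npc2 (3.53, 3.31e-11), Lipa (3.13, 2.5e-10), Abca1 (2.96, 1.07e-06), Abcg1 (2.91, 1.46e-06) and Soat1 (2.73, 1.03e-10) led upward, all without overlap. Sqle (-3.14, adjusted p 0.000151) and Hmgcs1 (-2.20, 7.2e-07) led downward. The other calls were Acat2 (-2.16), Fdft1 (-2.07), Pltp (1.89), Fdps (-1.61), Lss (-1.44), Ebp (1.41), Idi1 (-1.37), Cyp51 (-1.34), Srebf2 (-1.31), Insig1 (-1.26), Npc1 (1.09), Mvk (-1.02) and Pmvk (-0.76), while Nr1h3 did not pass (1.40, adjusted p 0.171). Pltp was lost (0.051 to 0.0627) without any 1 of TAM 49041, TC 49692 and TC 49849, with mouse as a block (0.0649), and without TAM 49041 and 49059 together (1.36, adjusted p 0.139). Idi1 was lost (0.0542 to 0.0669) without TAM 49827 or TAM 49849, and Mvk without TAM 49041 and 49059 together (-0.77, adjusted p 0.0504).

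Within the 15 mice that gave both sorts, Abca1, Abcg1, Ebp, Lipa, Mylip, Npc1, Npc2 and Soat1 were higher in the TAM library in 15 of 15. Acat2, Fdft1, Hmgcs1, Idi1, Insig1, Lss and Pmvk were higher in the TC library in 15 of 15. Pltp was higher in TAM in 9 of 15, and in 0 of the 6 Endpoint mice.

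**Figure D5:**
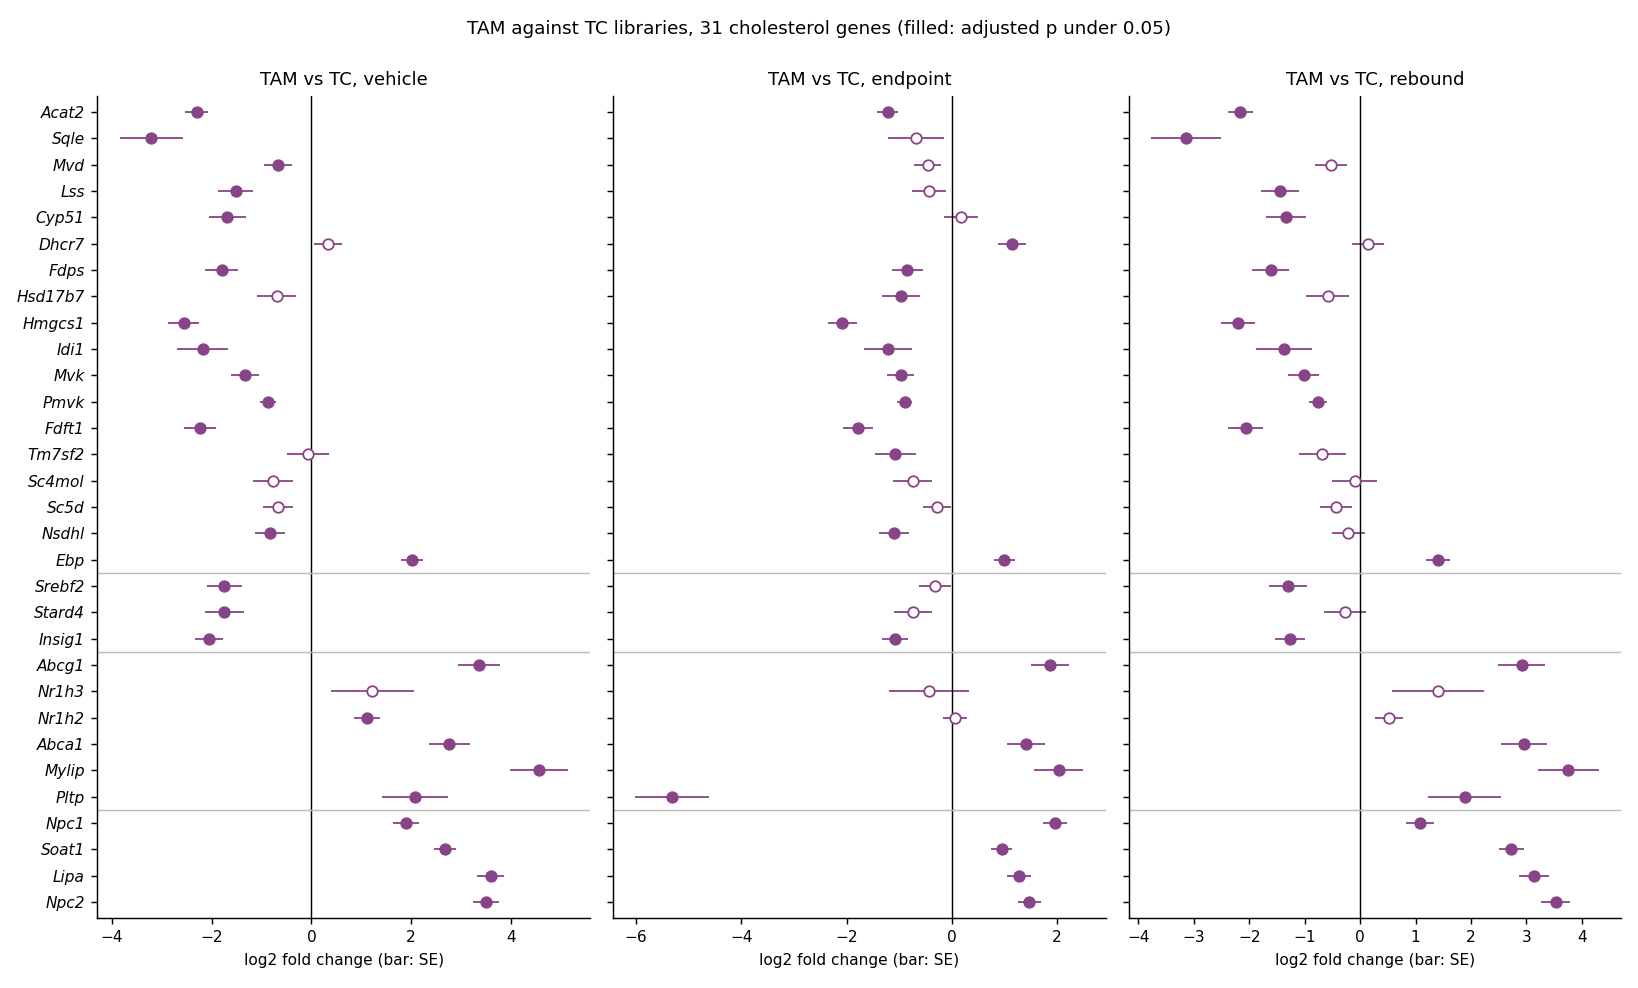
log2 fold change ± SE of TAM against TC for the 31 genes, grouped by role, at Vehicle, Endpoint and Rebound in the fit of all 32 libraries; filled points have an adjusted p under 0.05 in edgeR. Esterification and lysosomal genes lie above 0 at each stage, most synthesis genes lie below 0, and Pltp lies below 0 at Endpoint alone.

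The TAM change minus the TC change was tested directly, to ask whether a stage contrast differed between the 2 sorts. The Endpoint TC libraries differed in marker sums from those of the other TC stages (values above). In contrasts with Endpoint, a stage effect within a cell type and a shift in the cells sorted therefore cannot be told apart. For Endpoint against Vehicle 5 differences were positive and 8 negative, where 25.7% of all genes passed, 8.73% higher and 17% lower. Of all 15668 genes, 8627 had a negative estimate. All 6 LXR and export genes had one and 4 passed (median -1.57). Among esterification and lysosomal genes 3 of 4 passed as negative (median -1.88). By contrast, 3 synthesis genes and 2 sensing genes passed as positive and 1 synthesis gene as negative. Pltp differed by -7.39 ± 0.967 (adjusted p 1.61e-05), falling in TAM and rising in TC; without TC 49845 the difference was -6.47. Lipa (-2.31 ± 0.34, adjusted p 3.25e-05) and Npc2 (-2.02 ± 0.327, adjusted p 8.64e-05) likewise fell in TAM and rose in TC. Soat1 differed by -1.74 ± 0.284 (adjusted p 9.47e-05) and Mylip by -2.54 ± 0.685 (adjusted p 0.0076). On the positive side Sqle differed by 2.54 ± 0.798 (adjusted p 0.0198; 3.23 without TAM 57098), Cyp51 by 1.86 ± 0.486 (adjusted p 0.00587) and Acat2 by 1.09 (adjusted p 0.00748), its fall in TC being the larger.

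The other 5 differences depended on single libraries. Srebf2 (1.43, adjusted p 0.0232) was lost without TAM 49825 (0.0501), Ebp (-1.02, adjusted p 0.0114) without TAM 54359 or 64247 (0.0535 to 0.0615), and Nr1h2 (-1.06, adjusted p 0.0232) without TAM 54359, 54363 or 64247 (0.084 to 0.0958). Abcg1 (-1.49, adjusted p 0.0371) and Insig1 (0.97, adjusted p 0.0489) were each lost in 13 of 22 removals of 1 library, with adjusted p up to 0.108 and 0.111. With no filter on low counts Nr1h2 (0.064) and Abcg1 (0.0715) were lost, and Abcg1 also without the 3 TC libraries rich in oligodendrocyte markers (0.0946). Abca1 (-1.35, adjusted p 0.0568), Nr1h3 (-1.65, 0.294) and Hmgcs1 (0.48, 0.386) did not pass, but Abca1 passed with mouse as a block (-1.47, adjusted p 0.0275).

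For Rebound against Endpoint 5 differences were positive and 3 negative, where 20.6% of all genes passed, 13.4% higher and 7.18% lower. The Endpoint libraries are those of the Endpoint against Vehicle difference, so opposite signs arise in part by construction. Pltp (7.20 ± 0.962, adjusted p 3.06e-05), Npc2 (2.05, 0.00014), Lipa (1.85, 0.000431), Soat1 (1.78, 0.00014) and Abca1 (1.55, 0.036) were positive, and Sqle (-2.46, 0.0285), Cyp51 (-1.51, 0.0265) and Acat2 (-0.95, 0.0224) negative. The last 3 and Abca1 were sensitive to single libraries. Acat2 was lost without TC 49692 or TAM 49845 (0.0519 to 0.0593), Cyp51 without TC 49059, TAM 49827 or TAM 49845 (0.0507 to 0.0715), Sqle without TAM 49041, 49827 or 49845 or TC 49059 or 49849 (0.0513 to 0.0631), and Abca1 in 11 of 22 removals. With no filter on low counts Abca1 was lost (0.0695). With mouse as a block Abca1 was at 1.46 (adjusted p 0.0510) and Acat2 at -0.84 (adjusted p 0.0546). Without TC Rebound 49059 the count was 5, and without TAM Endpoint 49845 it was 4, in place of 8. The shares of all genes in those fits are not given here. Srebf2 (-0.99, adjusted p 0.127) passed without TAM 49059 (-1.42, adjusted p 0.025). Abcg1 (1.05, adjusted p 0.158), Nr1h3 (1.84, 0.254), Insig1 (-0.18, 0.769) and Hmgcs1 (-0.12, 0.863) did not pass. For Rebound against Vehicle 0 of 31 passed in edgeR and 0 in DESeq2, where 0.517% of all genes passed in edgeR (0.319% higher, 0.198% lower). An unadjusted edgeR p under 0.05 was found for 3 of the 31 and for 2169 of all 15668 genes.

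Levels of different genes were set against each other per kilobase of exonic sequence in GENCODE M21. In Vehicle TAM the order of the medians was led by Npc2 at 336 CPM per kb, Abcg1 at 222, Lipa at 70.4, Ebp at 53.4 and Mylip at 49.5, and closed by Stard4 at 0.597 and Idi1 at 0.416. In Endpoint TAM Npc2 stayed first at 257 CPM per kb and Abcg1 was second at 56.1. In Rebound TAM the 2 were at 303 and 270 CPM per kb, followed by Lipa at 81.0 and Abca1 at 80.2, which cannot be put in order given their spread. In Vehicle TC 2 synthesis genes led, Hmgcs1 at 110 and Acat2 at 97.1 CPM per kb, followed by Pmvk at 59.2, Npc2 at 45.8 and Sqle at 45.7. In Endpoint TC Npc2 was first at 117 CPM per kb, ahead of Hmgcs1 at 69.7 and Pltp at 42.5, and in Rebound TC Hmgcs1 led again at 115, ahead of Acat2 at 52.2 and Cyp51 at 49.3. Neither Hmgcs1 and Acat2 in Vehicle TC nor Acat2 and Cyp51 in Rebound TC can be put in order given their spread. All of these orders are of medians only, and ranges of other neighbours overlapped too. Examples are Npc2 and Abcg1 in Vehicle and Rebound TAM, and Pltp against both Npc2 and Hmgcs1 in Endpoint TC.

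Other genes of the pathway were counted from lists of related function. Over all genes tested, 19.3% were lower and 13.7% higher in Endpoint against Vehicle TAM, 11.7% higher in Rebound against Endpoint TAM, 14.8% lower and 14.0% higher in Endpoint against Vehicle TC, and 13.6% higher in Rebound against Endpoint TC. With 7 to 9 genes a list, counts of 1 are near these shares. Here and in the lists further below, comparisons that share the Endpoint libraries mirror each other in part by construction. In TAM at Endpoint, 4 of 9 LXR partners and lipid carriers fell and 0 rose (median -1.38): Apoc2 (-4.18, adjusted p 0.000927) and Apoc1 (-2.54, 0.0347), lipoprotein components, Rxra (-1.43, 7.43e-05), a partner receptor of LXR, and Lpcat3 (-1.38, 3.45e-05), a phospholipid-remodelling enzyme. At Rebound against Endpoint 7 of these 9 rose and 0 fell (median 1.45), among them Apoc2 (3.84), Apoc1 (3.05) and Lpl (2.93), lipoprotein lipase. Of 7 uptake receptors, 3 fell in TAM at Endpoint and 0 rose: Msr1, a scavenger receptor (-3.74, adjusted p 0.00248), Scarb1 (-1.80, 7.82e-06) and Lrp1 (-1.16, 7.97e-05). At Rebound 2 of the 7 rose over Endpoint, Msr1 (4.52) and Scarb1 (0.77). In TC at Endpoint the LXR partners gave 1 higher and 1 lower of 9, Abca7 (1.96) and Abcg4 (-2.73), and the uptake receptors 1 lower of 8, Scarb1 (-2.01, adjusted p 0.0022). At Rebound over Endpoint Scarb1 (1.92) and Lrp1 (1.48) were the 2 receptors of 8 that rose. In the list of remaining synthesis genes and SREBP processing factors, 1 of 7 rose and 1 fell in TAM at Endpoint, the latter being Mbtps1, a protease that activates SREBP (-0.88, adjusted p 0.00043), and 2 of 7 fell in TC, among them Acat1, the mitochondrial thiolase (-0.65, adjusted p 0.0213).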

How the data were processed

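The authors deposited unnormalized whole-number read counts by gene symbol in 1 table for all 32 libraries. Per the submitters' processing notes, STAR 2.3.0e, SAMtools and the mm10 genome were used; which counting program and gene models were used is not given in the sources used here. Per the labels' protocols, RNA was extracted with TRIzol, amplified with a SMART-Seq kit and sequenced as 2 reads of 50 bases per fragment. No 2 libraries of a group agreed within sampling noise (lowest chi-square per degree of freedom 19.7), and 1715 genes had no count.

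Counts were tested as deposited with edgeR 4.0.16 (R 4.3.3, limma 3.58.1): filterByExpr, TMM scaling, a robust quasi-likelihood fit and Benjamini-Hochberg adjustment over all genes tested, with a threshold of 0.05. The 16 libraries of a sort shared 1 fit for stages, and all 32 libraries shared 1 fit for TAM against TC and for differences between the sorts. Levels are TMM-scaled CPM; log2 levels add a pseudocount of 1. Alternatives were RLE scaling, no filter, DESeq2 1.42.0, mouse as a block, each library left out and, chosen after seeing the data, even counts divided by 2 and 2 sets of libraries left out. The lowest total of a member was 2711 counts over all libraries. The scripts were tested on simulated data.

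The replicate block pairs libraries of the same mouse: 15 mice gave both sorts, and their deviations from group means correlated at 0.011 to 0.337 (median 0.066; 5 of 15 over 0.1). No mouse is in 2 stages, so stage comparisons have no block.

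In each comparison every gene of the 31 was counted, those past the threshold were named, and Srebf2, Insig1, Hmgcs1, Sqle, Abca1, Abcg1, Nr1h3, Lipa and Npc2 were named in any case; of the wider lists, genes past the threshold with one of the 4 largest changes were named. The members and lists were chosen with earlier results of these data known. Some genes that this rule would name are not reported here.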

Additional observations from a re-analysis of the deposited data

Results flagged for a closer look

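In 9 of 186 combinations of gene and group, 1 library stood far from the others of its group. Chance gives such a gap in about 1 of 20, so this number of flags is near what chance alone would give. Endpoint TC of mouse 49845 accounted for 4 of them: Abcg1 at 61.9 CPM was low, and Lipa at 204 CPM, Npc2 at 1222 CPM and Nsdhl at 159 CPM were high. In the other Endpoint TC library concerned, mouse 49823, Soat1 was low at 64.5 CPM. Pltp was low at 2.60 CPM in Vehicle TC of mouse 57682. In TAM, Npc2 was high at 2695 CPM in Vehicle 54359, Hsd17b7 was low at 6.69 CPM in Rebound 49041, and Insig1 was high at 32.9 CPM in Rebound 49059.

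The TAM change minus the TC change passed the edgeR test in 21 cases, given here as log2 differences. Between Endpoint and Vehicle these were Pltp (-7.39), Mylip (-2.54), Lipa (-2.31), Npc2 (-2.02), Soat1 (-1.74), Abcg1 (-1.49), Nr1h2 (-1.06) and Ebp (-1.02) on the negative side, and Sqle (2.54), Cyp51 (1.86), Srebf2 (1.43), Acat2 (1.09) and Insig1 (0.97) on the positive side. Between Rebound and Endpoint they were Pltp (7.20), Npc2 (2.05), Lipa (1.85), Soat1 (1.78) and Abca1 (1.55), and Sqle (-2.46), Cyp51 (-1.51) and Acat2 (-0.95).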

How the results depend on the processing

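With 1 library left out in turn, the number of the 31 genes called was 11 to 20 for TAM Endpoint against Vehicle, 6 to 9 for TAM Rebound against Endpoint, 1 to 4 for TAM Rebound against Vehicle, 12 to 17 for TC Endpoint against Vehicle, 6 to 11 for TC Rebound against Endpoint and 0 to 0 for TC Rebound against Vehicle. TAM against TC gave 23 to 26 in Vehicle, 18 to 22 in Endpoint and 20 to 21 in Rebound, and the difference between the sorts 10 to 15, 4 to 11 and 0 to 0 for Endpoint against Vehicle, Rebound against Endpoint and Rebound against Vehicle. TAM Rebound against Vehicle fell from 5 calls to 1 with no filter and to 1 without Rebound 49041 and 49059 together, and TC Rebound against Vehicle went from 0 to 1 in DESeq2. The shares of all genes called in these fits are not given here. The counts therefore do not show whether calls changed among the 31 genes alone or among all genes. The replicate block, and the even counts divided by 2, moved no count by over 1.5 times; besides Abca1, Acat2 and Pltp (given with the results), the replicate block turned Nr1h3 in Endpoint TAM against TC to 0.034 and, in the Rebound against Vehicle difference, Nr1h3 to -1.01 and Abca1 to -0.0090. RLE scaling moved the median of all genes in Vehicle TAM against TC from -0.12 to -0.23. The other values that changed sign were all far from the threshold. In TAM Rebound against Vehicle they were Abcg1 with no filter (-0.0060) and with 1 library left out (-0.18 to 0.25), Lipa without 49041 and 49059 (0.27) and with 1 left out (-0.21 to 0.11), Hmgcs1 (-0.014 to 0.43), Npc2 (-0.21 to 0.016) and Sqle (-0.64 to 0.51). In TC Endpoint against Vehicle they were Insig1 with RLE (0.028), DESeq2 (0.029) and 1 left out (-0.24 to 0.12), and Nr1h3 with RLE (0.010), DESeq2 (0.0078), without the 3 TC libraries with oligodendrocyte markers (0.33) and with 1 left out (-0.45 to 0.83). In TC Rebound against Endpoint they were Insig1 with no filter (0.00132), without the 3 TC libraries (0.11) and with 1 left out (-0.21 to 0.13), and Abca1 (-0.13 to 0.48). In TC Rebound against Vehicle, with 1 left out, they were Insig1 (-0.25 to 0.053), Hmgcs1 (-0.41 to 0.046), Nr1h3 (-0.094 to 1.13) and Srebf2 (-0.18 to 0.10). In the difference between sorts for Rebound against Vehicle they were Nr1h3 without the 2 TAM libraries (-0.18), without the 3 TC libraries (-0.30) and with 1 left out (-0.70 to 0.49), Sqle without the 2 TAM libraries (-0.27) and with 1 left out (-0.44 to 0.77), Abca1 (-0.17 to 0.56) and Npc2 (-0.095 to 0.24), and for Rebound against Endpoint Hmgcs1 (-0.32 to 0.00083). The cause of these changes was not tested. Nr1h3, for example, was at 0 to 8.97 CPM in Endpoint TC, where few counts stand behind each value.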

Other observations

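Genes of fatty acid synthesis, which SREBP-1 controls, were counted beside the cholesterol genes. In Endpoint against Vehicle TC, 7 of 11 fell and 0 rose (edgeR), where 14.8% of all genes were lower: Elovl6 (-1.77, adjusted p 0.00987), a fatty acid elongase, and Fasn (-1.72, adjusted p 0.000685), fatty acid synthase, fell most, followed by Me1 (-1.06) and Acaca (-1.03). At Rebound against Endpoint TC 3 rose, Elovl6 (1.95), Fasn (1.45) and Acly (0.81), and 2 fell, Acss2 (-1.41) and Scd1 (-1.30), where 13.6% of all genes were higher and 11.5% lower. In TAM at Endpoint 3 fell, Fasn (-1.43, adjusted p 0.000199), Scd2 (-1.43, adjusted p 3.37e-05) and Acly (-0.72), while Scd1, a desaturase, rose (2.07, adjusted p 0.000322); of all genes 19.3% were lower and 13.7% higher, so these counts of 11 are not far from those shares. Fasn (1.15) and Scd2 (1.33) rose at Rebound against Endpoint, a comparison that shares the Endpoint libraries.

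Of 10 genes of ester turnover, oxysterols and sterol carriers, 4 fell and 1 rose in TAM at Endpoint, against the same shares of all genes. Ch25h, which makes 25-hydroxycholesterol, fell by 4.62 on the log2 scale (adjusted p 0.00189) and Gramd1b, a sterol carrier, by 3.02 (adjusted p 3.22e-05), and both rose at Rebound (3.93 and 2.82). Cyp27a1, which makes 27-hydroxycholesterol, moved the other way, by 1.59 (adjusted p 0.000922) at Endpoint and -0.94 (adjusted p 0.0419) at Rebound. In TC at Endpoint Ch25h fell (-4.87, adjusted p 0.00937) and Cyp27a1 rose (1.97, adjusted p 0.0304).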
